A study of Mus musculus with 77 samples.

Results

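The 43 genes described here mark lymphocytes in mouse lung and were chosen by symbol alone, from lists of B cell genes (10 genes), T cell genes (23 genes) and natural killer (NK) or cytotoxic genes (10 genes). All 43 symbols were found in each of the 3 lung expression tables, among 24940 gene symbols per table. Whole lungs were taken at postnatal day 14 from mice raised in normal air, or under 75% oxygen (hyperoxia) begun no later than 24 h after birth and held until that day. The poly(A) RNA came from C57BL/6J mice (B6, 4 room air and 3 hyperoxia libraries), from Trem2 knockout mice (KO, 4 and 4), from DBA/2J mice (DBA, 4 and 4) and from a second set of B6 mice (set 2, 2 and 3). Perfusion with saline before removal, which clears blood from the vessels, was part of the protocol for every lung. The KO and DBA lines were purchased, the KO is labelled as a Trem2 knockout with no cell type named, and the labels do not say whether litters were shared.

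B cells recognise antigen through membrane immunoglobulin, which signals through the CD79 pair, and the transcription factor Pax5 holds their identity. T cells carry an antigen receptor that signals through the CD3 chains and the kinases Lck and Zap70, and they mature in the thymus, where precursors rearrange receptor genes with the Rag enzymes. NK cells kill without an antigen receptor, using granzymes and perforin, and read target cells through lectin-like receptors of the Klr family. The lung of a newborn mouse is seeded with all of these cells during the first weeks of life, and the lung also holds type 2 innate lymphoid cells, which share genes such as Gata3 and Il7r with T cells.

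Levels are in TPM, a read count scaled by transcript length and library total. Differences are given as log2 fold changes of TPM + 1 with their standard error (SE), from limma across all genes, and a gene was called when its Benjamini-Hochberg adjusted p was below 0.05. A gene entered a test when it reached 1 TPM in a number of libraries equal to the smallest group, and 34 of the 43 members did so in the B6, KO and DBA tables, 35 in set 2. The members left out of the first tables were Cr2, Ctla4, Klrb1c, Ncr1, Gzmb, Prf1, Eomes, Tbx21 and Klrk1. Whether groups overlap is given as a description only, because the share of all genes without overlap was not counted. In the B6 oxygen response 26% of all genes tested were called lower and 16.6% higher, so separated groups are not a mark of these members. In whole lung RNA, fewer cells of a type and less RNA per cell cannot be told apart.

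The libraries carried the marks of lung: the surfactant gene Sftpc reached at least 5084 TPM and the endothelial gene Pecam1 at least 250.2 TPM in each of the 28 libraries. Depth, estimated from the steps between values, was 12.5 to 41.1 M reads (M for mega) in the B6, KO and DBA libraries and 7.08 to 8.04 M reads in set 2. Trem2, the targeted gene, lay at 2.14 to 3.73 TPM in room air B6 lungs and at 1.05 to 2.75 TPM in room air KO lungs, ranges that overlap, while hyperoxic lungs had 5.97 to 9.85 TPM in B6 and 1.96 to 2.67 TPM in KO. Column names give a sex and a date code: both sexes were used for B6 (2 males and 2 females in room air, 2 males and 1 female in hyperoxia), and males alone for KO, DBA and set 2. B6 hyperoxia libraries carry date code 1 and KO hyperoxia libraries date code 3, whereas the DBA libraries carry codes 4 and 5 that no B6 library has, so that strain and date code cannot be told apart between DBA and B6. Red cell genes summed to 380.1 to 6833 TPM in room air B6 lungs and to 30997 to 80009 TPM in the room air lungs of set 2. Room air KO lungs had 5737 to 6661 TPM and room air DBA lungs 7885 to 28401 TPM, above every room air B6 library of the first tables. In hyperoxia the sums were 804 to 1932 TPM in B6 and 3177 to 11052 TPM in DBA lungs. The part of blood left in the lungs was not tested.

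RefSeq promoter sequences were at hand for 32 of the 43 members (7 B cell, 16 T cell and 9 NK genes) on GRCm38.p6, the mm10 build. The 250 bases before each start were searched on both strands for 4 short motifs. CAGGTG, the E-box that E proteins such as E2A bind in developing lymphocytes, was present in 16 of the 32 members (50.0%), in 6 of 7 B cell genes, 7 of 16 T cell genes and 3 of 9 NK genes. The same letters occurred in 19.4% of 27025 genes, taking every gene with at least 1 RefSeq promoter. The octamer ATGCAAAT occurred in 0 of the 32 members and 1.81% of genes, and the Runx motif AACCACA in 5 members and 5.08% of genes. The core ACANNNTGT of the glucocorticoid receptor site occurred in 3 members (Cd22, Ncr1 and Pax5) and 6.76% of genes. These are matches of letters in a fixed window and say nothing about which factor was bound. Promoters of 4 B cell genes and of the neighbouring pair Cd3g and Cd3d are shown because their genes moved together in the comparisons that follow. Each sequence runs 5′ to 3′ on the gene's own strand and ends at the base before the start, with CAGGTG or its complement CACCTG in capitals.
Cd79a, chr7:24897247-24897496, plus strand: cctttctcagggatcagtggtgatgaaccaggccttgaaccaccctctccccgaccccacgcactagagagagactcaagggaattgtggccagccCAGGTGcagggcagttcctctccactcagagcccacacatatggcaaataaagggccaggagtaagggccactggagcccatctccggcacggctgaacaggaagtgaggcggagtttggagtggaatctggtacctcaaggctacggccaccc
Fcrla, chr1:170927584-170927833, minus strand: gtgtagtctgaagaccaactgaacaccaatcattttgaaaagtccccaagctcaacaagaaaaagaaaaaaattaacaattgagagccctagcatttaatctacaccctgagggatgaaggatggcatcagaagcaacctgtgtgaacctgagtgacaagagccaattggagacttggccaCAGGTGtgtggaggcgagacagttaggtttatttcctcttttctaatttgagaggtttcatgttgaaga
Cd22, chr7:30879029-30879278, minus strand: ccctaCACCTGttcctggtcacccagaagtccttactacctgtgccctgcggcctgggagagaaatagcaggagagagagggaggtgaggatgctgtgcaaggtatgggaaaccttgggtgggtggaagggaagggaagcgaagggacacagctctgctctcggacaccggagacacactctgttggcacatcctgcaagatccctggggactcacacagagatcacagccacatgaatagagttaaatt
Bank1, chr3:136326067-136326316, minus strand: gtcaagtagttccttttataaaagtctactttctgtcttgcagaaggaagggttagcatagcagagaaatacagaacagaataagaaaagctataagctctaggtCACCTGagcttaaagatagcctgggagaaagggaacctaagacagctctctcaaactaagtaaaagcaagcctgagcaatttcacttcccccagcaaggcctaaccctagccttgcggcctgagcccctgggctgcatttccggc
Cd3g, chr9:44980432-44980681, minus strand: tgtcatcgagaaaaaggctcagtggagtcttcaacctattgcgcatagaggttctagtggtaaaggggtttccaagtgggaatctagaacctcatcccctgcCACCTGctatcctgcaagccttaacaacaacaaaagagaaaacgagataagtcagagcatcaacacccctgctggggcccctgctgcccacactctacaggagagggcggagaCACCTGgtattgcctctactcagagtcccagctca
Cd3d, chr9:44981536-44981785, plus strand: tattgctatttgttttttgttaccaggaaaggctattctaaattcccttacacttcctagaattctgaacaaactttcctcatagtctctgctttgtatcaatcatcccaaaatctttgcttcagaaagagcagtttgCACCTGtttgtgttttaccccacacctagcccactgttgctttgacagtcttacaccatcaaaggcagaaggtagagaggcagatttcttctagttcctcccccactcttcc
The E-box begins 154 bases before the start of Cd79a, 69 before Fcrla, 245 before Cd22 and 145 before Bank1. Cd3g has 2 copies, 148 and 35 bases before its start, and Cd3d has 1 copy 112 bases before its own. Both CD3 genes lie on chromosome 9, are read in opposite directions, and have starts 1355 bases apart.

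Summed over the 10 B cell genes, room air B6 lungs held 76.9, 101, 101 and 121 TPM and hyperoxic B6 lungs 36.4, 29.1 and 33.6 TPM. Every hyperoxic B6 library lay under the lowest room air library. The B cell sum in KO lungs was 76.04, 78.1, 76.3 and 64.1 TPM in room air against 59.1, 59.97, 54.9 and 40.9 TPM in hyperoxia, again without overlap. In DBA lungs the sum was 31.8, 32.1, 33.2 and 42.6 TPM in room air against 25.98, 26.6, 37.2 and 39.8 TPM in hyperoxia, so that room air DBA lungs already stood near hyperoxic B6 lungs and the DBA groups overlapped. In set 2 the sums were 149 and 147 TPM in room air against 84.4, 86.3 and 73.02 TPM in hyperoxia. The sum of the 23 T cell genes was 119.7, 124, 141 and 124 TPM in room air against 95.7, 86.8 and 101 TPM in hyperoxic B6 lungs, without overlap. In KO lungs it was 119.7, 268, 113 and 174 TPM in room air against 97.1, 93.1, 83.9 and 78.2 TPM in hyperoxia. Among room air KO lungs, libraries 2 and 4 stood far above the other libraries in this T cell sum, whereas the B cell sum of library 4 was the lowest of its group. DBA lungs had a T cell sum of 84.2 to 106 TPM in room air against 69.9 to 87.1 TPM in hyperoxia, and set 2 of 109.8 and 181 and then 79.6, 103 and 85.6 TPM. The T cell sum is not particular to T cells. It was 196 to 375 TPM in cultured bone marrow macrophages of the same study, where Il7r, Cd28 and Cd4 were its highest genes. NK and cytotoxic genes were scarce, with a 10-gene sum of 8.73 to 11.1 TPM in room air B6 lungs and 3.67 to 6.57 TPM in room air DBA lungs.

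**Figure D1:**
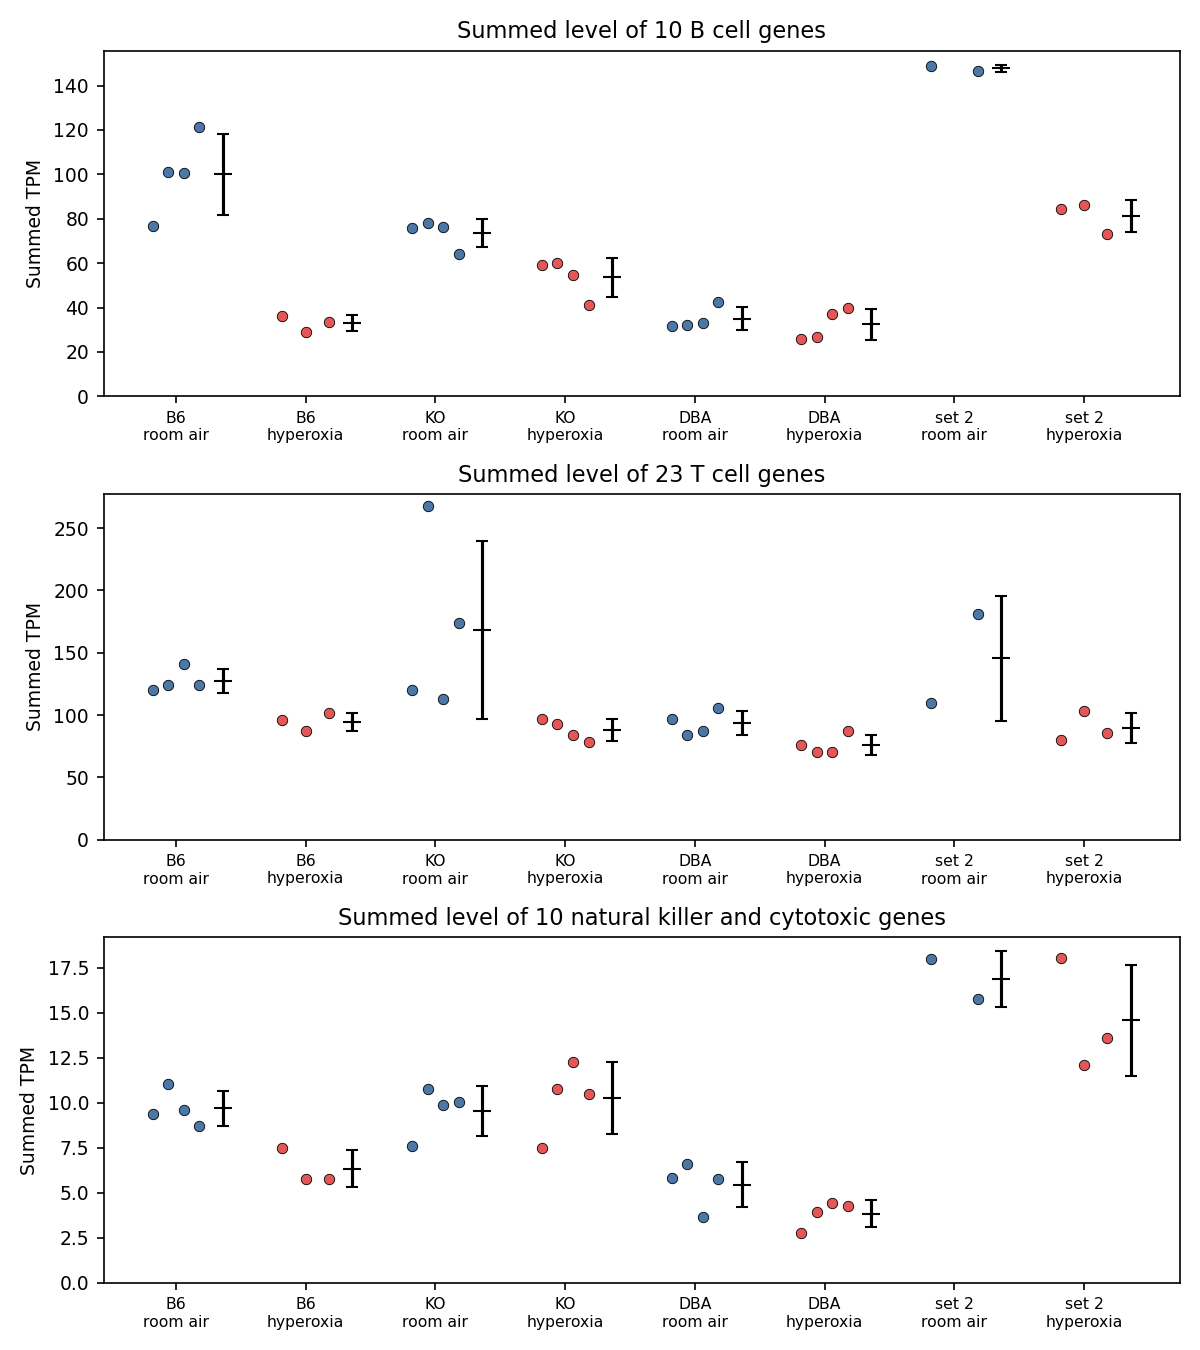
Summed TPM of the 10 B cell, 23 T cell and 10 NK or cytotoxic genes in each of the 28 lung libraries, by genotype and oxygen, with the mean and SD of each group. The B cell sum is 29.1 to 36.4 TPM in hyperoxic B6 lungs against 76.9 to 121 TPM in room air, and 2 room air KO libraries stand out in the T cell sum.

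B cell genes fell together in hyperoxic B6 lung. All 9 B cell members tested were called lower, with a median log2 fold change of -1.19 against -0.07 over all 15614 genes tested. In the same comparison 4 of 22 T cell members and 0 of 3 NK members were called lower and no member was called higher, 13 of 34 in all, where 26% of all genes tested were called lower and 16.6% higher. T cell members had a median of -0.29 and NK members of -0.38. For the NK members limma gave 1 gene (Gzma) at an unadjusted p under 0.05. The count for B cell genes stayed 9 of 9 within date code 1, in males alone, with sex or date code as a term and without each library in turn.

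Ms4a1, which encodes the B cell surface protein CD20, had 13.3, 16.4, 25.9 and 25.7 TPM in room air against 3.18, 2.77 and 3.38 TPM in hyperoxic B6 lungs. Its hyperoxic libraries lay close together and well under the lowest room air library, and the log2 fold change was -2.32 ± 0.18 (limma adjusted p = 3e-07). KO lungs had 13.7, 16.7, 12.6 and 13.8 TPM in room air against 9.37, 10.5, 9.07 and 8.22 TPM in hyperoxia, groups that did not overlap, with a log2 fold change of -0.56 ± 0.17 (limma adjusted p = 0.0317). This was the 1 B cell gene called in KO lung, and the call was lost in 9 of 17 alternatives (limma adjusted p up to 0.288). Leaving out room air library 1, 2 or 4 or hyperoxia library 1, 3 or 4, the fit without a filter, and both settings that take account of thymocyte genes each ended it. DBA lungs carried little Ms4a1 in either air, with 1.87, 2.09, 2.51 and 1.47 TPM in room air against 1.95, 2.93, 3.59 and 3.38 TPM in hyperoxia. In set 2 the values were 30.6 and 30.02 TPM in room air against 16.6, 15.1 and 11.9 TPM in hyperoxia, without overlap (log2 fold change -1.02 ± 0.16, limma adjusted p = 0.00908).

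The signalling chains of the B cell receptor followed. Cd79a had 15.7, 22.3, 19.5 and 24.7 TPM in room air against 8.83, 4.63 and 6.87 TPM in hyperoxic B6 lungs (log2 fold change -1.49 ± 0.21, limma adjusted p = 4.16e-05). Its partner Cd79b had 25.8, 33.7, 30.4 and 39.2 TPM in room air against 14.6, 14.01 and 15.02 TPM in hyperoxia (-1.08 ± 0.16, limma adjusted p = 7.69e-05). For both chains every hyperoxic B6 library was under every room air library. In KO lungs Cd79a had 14.1, 17.8, 16.3 and 13.2 TPM in room air against 13.6, 10.9, 11.6 and 7.20 TPM in hyperoxia, and Cd79b had 27.9, 23.9, 25.6 and 19.3 and 19.4, 21.4, 19.6 and 13 TPM. The KO groups overlapped for both genes and neither was called (log2 fold changes -0.49 ± 0.19 and -0.39 ± 0.15). Among DBA lungs Cd79a had 7.69, 9.06, 5.20 and 8.79 TPM in room air against 5.06, 5.33, 8.18 and 8.24 TPM in hyperoxia, and Cd79b had 10.04, 9.61, 12.1 and 10.5 and 10.5, 10.2, 14.2 and 15.3 TPM, with overlapping groups. Set 2 gave 18.2 and 23.5 and then 15.8, 10.1 and 11.2 TPM for Cd79a, and 55.6 and 56.2 and then 32.9, 34.8 and 31.9 TPM for Cd79b. Only Cd79b was called among these chains in set 2 (-0.74 ± 0.11, limma adjusted p = 0.00995). In set 2 leaving out room air library 1 or 2 ended the calls of Ms4a1 and Cd79b.

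Genes that modulate that receptor also fell in B6 lung. Bank1, an adaptor of B cell receptor signalling, had 3.12, 3.77, 3.97 and 5.61 TPM in room air against 0.425, 0.986 and 0.662 TPM in hyperoxia (-1.59 ± 0.23, limma adjusted p = 5.58e-05). The Src-family kinase gene Blk had 4.59, 4.89, 2.59 and 5.65 and then 1.83, 1.38 and 2.22 TPM (-0.92 ± 0.24), and the inhibitory lectin gene Cd22 had 3.61, 5.32, 4.59 and 5.72 and then 2.01, 2.09 and 1.78 TPM (-0.96 ± 0.14). None of the 3 overlapped between room air and hyperoxia in B6. KO lungs had 3.77, 3.31, 1.90 and 2.20 and then 1.85, 3.77, 2.68 and 1.84 TPM of Bank1, 2.43, 4.53, 6.39 and 3.60 and then 2.85, 2.72, 2.54 and 3.78 TPM of Blk, and 3.83, 3.48, 4.03 and 4.45 and then 3.30, 2.99, 2.62 and 2.68 TPM of Cd22. The Bank1 and Blk groups of KO lung overlapped, the Cd22 groups did not, and none of the 3 was called. DBA lungs had 0.808, 0.767, 0.950 and 1.08 and then 0.785, 0.687, 1.62 and 1.15 TPM of Bank1, 1.99, 2.05, 2.61 and 3.83 and then 2.36, 2.13, 2.20 and 2.25 TPM of Blk, and 2.58, 1.80, 2.15 and 4.67 and then 1.20, 1.51, 1.86 and 2.35 TPM of Cd22. In set 2 Bank1 had 4.58 and 3.26 and then 2.57, 3.22 and 2.60 TPM, Blk 5.20 and 6.94 and then 2.71, 5.09 and 2.98 TPM, and Cd22 4.66 and 4.37 and then 2.38, 3.30 and 2.82 TPM. No member of this trio was called in DBA lung or in set 2.

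Fcrla, which encodes an Fc receptor-like protein kept inside B cells, had 5.34, 5.92, 7.01 and 7.74 TPM in room air against 2.44, 2.001 and 1.82 TPM in hyperoxic B6 lungs (-1.27 ± 0.16, limma adjusted p = 1.8e-05). Fcer2a, the low-affinity IgE receptor CD23 of mature B cells, had 2.24, 4.13, 3.09 and 2.70 and then 0.704, 0.741 and 0.809 TPM (-1.19 ± 0.26, limma adjusted p = 0.00202). The B6 groups did not overlap for either gene. KO lungs had 4.79, 4.07, 4.86 and 3.71 and then 3.01, 4.48, 3.69 and 2.50 TPM of Fcrla, and 2.31, 2.07, 1.54 and 2.10 and then 3.68, 0.987, 1.39 and 0.746 TPM of Fcer2a, with overlap in both. DBA lungs had 2.35, 1.57, 2.09 and 2.77 and then 0.741, 1.20, 2.44 and 2.05 TPM of Fcrla, and 1.43, 1.92, 0.539 and 1.68 and then 1.74, 0.539, 1.11 and 2.02 TPM of Fcer2a. Hyperoxia changed neither gene past the threshold in KO, DBA or set 2 lungs, where set 2 held 15.1 and 10.7 and then 9.08, 8.76 and 5.39 TPM of Fcrla and 3.09 and 5.50 and then 1.11, 3.23 and 2.85 TPM of Fcer2a. Cr2, the complement receptor CD21, stayed under 1 TPM in every lung library.

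Pax5, the transcription factor of B cell identity, had a pattern of its own. It fell in B6 lung (-1.10 ± 0.25, limma adjusted p = 0.00235), in DBA lung (-0.80 ± 0.25, limma adjusted p = 0.0235) and in set 2 (-1.97 ± 0.33, limma adjusted p = 0.0134), and was not called in KO lung (-0.33 ± 0.23). B6 lungs ranged over 2.95 to 3.98 TPM in room air against 0.528 to 2.15 TPM in hyperoxia. DBA lungs had 2.85, 2.99, 4.44 and 7.19 TPM in room air against 1.58, 2.01, 1.59 and 2.67 TPM in hyperoxia, so that room air DBA lungs were not short of Pax5 although they were short of Ms4a1 and both CD79 chains. Set 2 had 11.4 and 5.56 TPM in room air against 0.906, 2.29 and 0.952 TPM in hyperoxia, with a wide gap between its room air libraries, and the call was lost without room air library 1 or hyperoxia library 1. The DBA call was lost in 5 of 17 alternatives, within date code 4 and when room air library 3 or 4, or hyperoxia library 1 or 3, was left out.

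**Figure D2:**
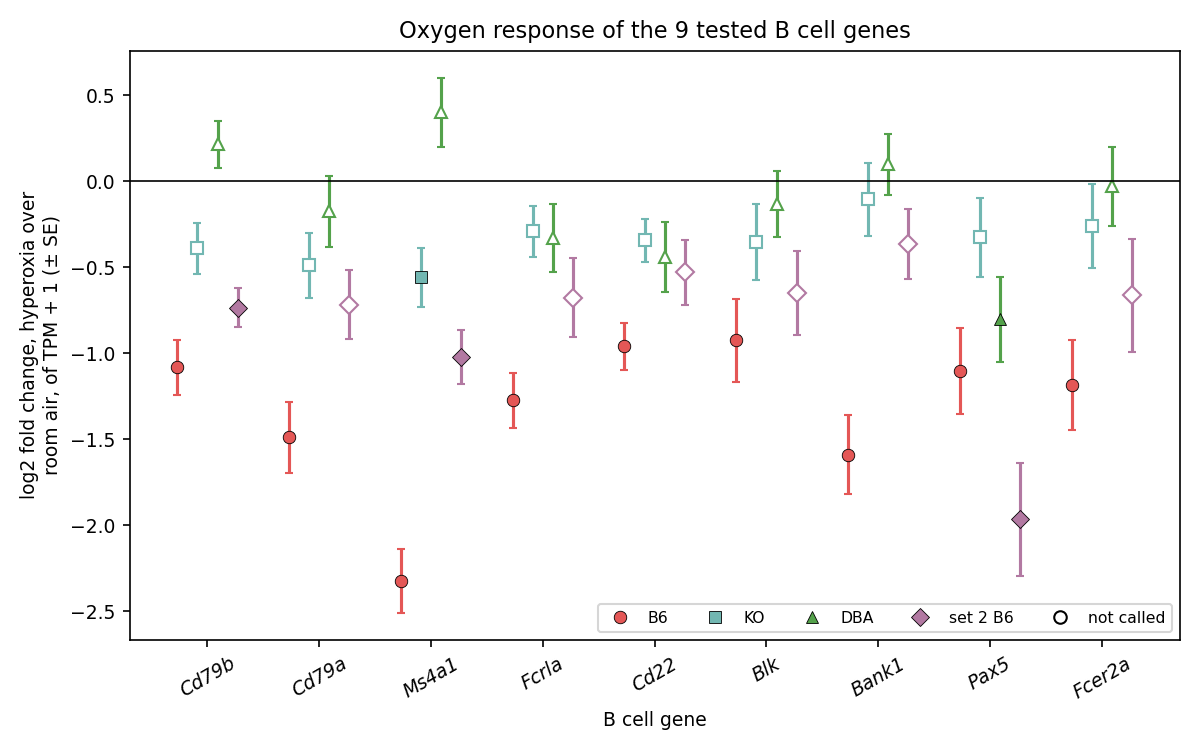
Log2 fold change of TPM + 1, hyperoxia minus room air, with its SE, for the 9 B cell genes tested in B6, KO, DBA and set 2 lungs, with filled points for genes called by limma. All 9 points of B6 are filled and below 0, while KO has 1 filled point (Ms4a1), DBA 1 (Pax5) and set 2 has 3 (Pax5, Ms4a1 and Cd79b).

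In KO lung 12 of 34 members were called lower and 0 higher, 1 of them a B cell gene and 11 T cell genes, where 9.11% of all genes were called lower and 10.6% higher. The median log2 fold change was -0.34 for B cell, -0.75 for T cell and 0.09 for NK members against 0.01 for all genes. In DBA lung 5 members were called lower (Pax5 and 4 T cell genes) and 0 higher, with 12.4% and 18.6% of all genes called lower and higher. Its median was -0.14 for B cell and -0.05 for T cell members against 0.05 for all genes. Set 2 had 3 members called lower, all B cell genes, and 0 higher, where only 1.81% and 3.13% of all genes were called. There the median was -0.68 for B cell and -0.47 for T cell members against 0.01 for all genes. At an unadjusted p under 0.05 limma gave 16 members in set 2, and 34 of the 35 tested had a negative fold change. The set 2 count was 1 without room air replicate 2, leaving a single room air library that was assumed to vary like the other group, and 8 (5 B cell and 3 T cell genes) in the fit with the replicate block.

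The difference between the oxygen responses was tested directly. Relative to B6, the KO response was higher for 6 of 9 B cell members, with a median difference of 0.92 against 0.09 for all genes. These were Ms4a1 (1.77 ± 0.25, limma adjusted p = 1.76e-04), Bank1 (1.48 ± 0.31), Cd79a (1.00 ± 0.28), Fcrla (0.98 ± 0.22), Cd79b (0.69 ± 0.22) and Cd22 (0.62 ± 0.19). With Foxp3 higher and Il7r lower, 7 members were called higher and 1 lower, where 16.4% of all genes were called higher and 8.98% lower. Relative to B6, the DBA response was higher for 7 of 9 B cell members, with a median difference of 1.16 against 0.11 for all genes. Ms4a1 (2.73 ± 0.30, limma adjusted p = 6.86e-05) was followed by Bank1 (1.69 ± 0.26), Cd79a (1.31 ± 0.31), Cd79b (1.30 ± 0.20), Fcer2a (1.16 ± 0.34), Fcrla (0.94 ± 0.29) and Blk (0.79 ± 0.28). With Cd2 higher and Il7r and Tnfrsf25 lower, 8 members were called higher and 2 lower, where 20% and 9.2% of all genes were called. Both differences use the same B6 libraries, so they are not independent of each other. Those are the B6 mice of the first tables, with a B cell median of -1.19 in hyperoxia, and set 2, with -0.68, entered neither difference. Room air DBA lungs started low, at 1.47 to 2.51 TPM of Ms4a1 and 0.767 to 1.08 TPM of Bank1. With date code as a term 4 members were called in the KO difference, 3 of them B cell genes, and without the libraries that held over 10 TPM of thymocyte genes also 4. The DBA difference had 6 members in males alone, 6 without B6 room air library 4 and 6 without DBA hyperoxia library 3.

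Other lists of genes moved in the same B6 libraries as the B cell genes. Of all genes tested in that comparison, 26% were called lower and 16.6% higher. Of 18 further B cell genes 14 were called lower and 1 higher in hyperoxic B6 lung. Those called lower included the IgM receptor gene Fcmr (-1.58 ± 0.24), the transcription factor gene Spib (-1.47 ± 0.16) and the follicle homing receptor gene Cxcr5 (-1.42 ± 0.22). Pan-leukocyte genes were called lower in 7 of 8 cases, with a median of -0.65, and summed to 264 to 324 TPM in room air against 163 to 191 TPM in hyperoxia. Ptprc, the leukocyte antigen CD45 and 1 of these 8, had 26.5, 29.5, 30.6 and 31.8 TPM in room air against 13.4, 17.4 and 15.5 TPM in hyperoxic B6 lungs. Per unit of Ptprc, the B cell sum was 2.90, 3.42, 3.29 and 3.82 in room air and 2.72, 1.68 and 2.17 in hyperoxia, groups that did not overlap. KO lungs had ratios of 2.61, 1.96, 2.93 and 2.51 in room air and 2.43, 2.28, 2.42 and 1.95 in hyperoxia, with overlap. DBA lungs had 3.44, 3.23, 3.30 and 3.41 and then 2.70, 3.93, 3.29 and 2.76, also with overlap. Set 2 had 7.48 and 5.52 and then 5.08, 4.63 and 4.20, without overlap. Of 12 antigen presentation genes (MHC class II and dendritic cells) 7 were lower and 1 higher in B6 lung, with sums of 1031 to 1484 TPM in room air against 670.4 to 729 TPM in hyperoxia. The part of these other leukocytes in the B cell result was not tested.

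Genes that glucocorticoids induce rose in hyperoxic B6 lung of the first set, with 9 of 10 called higher, where 16.6% of all genes were, and a median of 1.32. Their rise in hyperoxic B6 lung was known from earlier results when the list was chosen, so this count is a description and not a test. Their sum was 494 to 802 TPM in room air against 1539 to 1890.0 TPM in hyperoxia, with Cdkn1a, which p53 also induces, among them. Fkbp5, a chaperone gene of the glucocorticoid receptor complex, had 4.83, 5.94, 7.32 and 5.58 TPM in room air against 66.3, 90.9 and 64.7 TPM in hyperoxic B6 lungs. Elsewhere its hyperoxic levels lay under or near those of room air, with 9.41, 17.6, 13.7 and 15.1 and then 7.76, 8.19, 8.96 and 10.5 TPM in KO lungs and 8.06 and 9.60 and then 3.16, 4.12 and 6.60 TPM in set 2. Tsc22d3, which encodes the glucocorticoid-induced leucine zipper, had 92.5, 137, 171 and 201 TPM in room air against 263, 361 and 290.2 TPM in hyperoxic B6 lungs, and 488, 427, 544 and 252 and then 145, 169.6, 153 and 185 TPM in DBA lungs. Of the 10 genes, 5 were called lower and 1 higher in KO lung, 4 lower and 1 higher in DBA lung, and 4 lower and 1 higher in set 2, where 3 B cell genes were called lower. Of all genes, 9.11% were called lower and 10.6% higher in KO, 12.4% and 18.6% in DBA, and 1.81% and 3.13% in set 2. In the room air comparison of DBA with B6, 9 of the 10 were called higher, where 21.5% of all genes were. The part of this list in the B cell result was not tested.

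Survival factors and homing signals for lymphocytes were also measured. Tnfsf13, which encodes the B cell survival factor APRIL, fell in B6 (-0.94 ± 0.09), KO (-0.49 ± 0.08) and DBA lung (-0.59 ± 0.09), with limma adjusted p-values of 1.19e-06, 8.57e-04 and 2.09e-04. Of the 6 survival cytokine genes, 2 were lower in B6, 1 in KO, 1 in DBA and 0 in set 2, where limma gave 1 at an unadjusted p under 0.05. These counts are near the 26%, 9.11% and 12.4% of all genes called lower in B6, KO and DBA lung. Cxcl12, a chemokine that holds B cell precursors and naive lymphocytes, fell in B6 (-1.60 ± 0.18), KO (-1.08 ± 0.17), DBA (-0.74 ± 0.21) and set 2 lung (-1.35 ± 0.13). Ccl21a, a ligand of Ccr7 made by lymphatic and stromal cells, fell in B6 (-0.71 ± 0.21) and in DBA lung (-1.10 ± 0.19). The list of 10 chemokine genes that holds both did not fall as a whole. Of 8 tested, 2 were lower and 1 higher in B6, 1 and 2 in KO, 3 and 0 in DBA, and 2 and 3 in set 2. The medians were -0.29, 0.37, -0.08 and 0.65. Of all genes, 16.6% were called higher in B6, 10.6% in KO, 18.6% in DBA and 3.13% in set 2, where 1.81% were lower. Among 8 plasma cell genes, of which 7 were tested in B6, 5 were lower, led by Mzb1 (-1.05 ± 0.26) and Prdm1 (-0.82 ± 0.17). The 1 called higher was Sdc1, with 99.3, 95.7, 106 and 95.8 TPM in room air against 139, 129 and 112 TPM in hyperoxic B6 lungs. In the other mice 0 were lower and 1 higher of 7 in KO, 1 and 1 of 6 in DBA, and 1 and 0 of 5 in set 2.

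Few T cell genes were called in B6 lung, although 20 of the 22 tested had a negative fold change (median -0.29 against -0.07 for all genes). The 4 called lower in hyperoxia were Tnfrsf25, Cd2, Gata3 and Ccr7. The chains of the T cell receptor complex were not called: Cd3e had 6.02, 5.23, 7.84 and 6.23 TPM in room air against 5.14, 3.30 and 5.14 TPM in hyperoxia, and Cd3g 7.66, 8.93, 8.48 and 6.61 and then 4.88, 3.97 and 6.76 TPM. For Cd3e the groups lay side by side without overlap, and for Cd3g they overlapped. Cd247, the zeta chain, had 7.34, 7.96, 6.15 and 8.03 and then 5.53, 6.78 and 8.12 TPM, with overlapping groups. The kinase gene Lck had 4.14, 4.69, 7.52 and 4.21 TPM in room air against 3.92, 2.77 and 5.34 TPM in hyperoxia, and the adaptor gene Lat 3.44, 5.07, 4.21 and 4.34 and then 3.40, 4.30 and 4.31 TPM, also with overlap. Cd8b1, a chain of the CD8 coreceptor, had 2.62, 2.48, 7.28 and 4.67 and then 2.60, 1.09 and 2.76 TPM, and room air library 3 was its highest.

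Cd2, an adhesion molecule of lymphocytes counted here among the T cell genes, was also called lower in B6 lung. Its values were 12.9, 18.02, 22.2 and 15.1 TPM in room air against 5.40, 5.51 and 8.28 TPM in hyperoxia, without overlap (-1.28 ± 0.23, limma adjusted p = 3.37e-04). KO lungs had 12.5, 15.7, 7.72 and 13.1 and then 9.43, 9.05, 9.99 and 5.99 TPM, DBA lungs 4.74, 4.62, 6.41 and 6.11 and then 4.33, 5.28, 6.01 and 7.68 TPM, and set 2 9.43 and 12.8 and then 6.40, 7.39 and 7.87 TPM. Of these 3 groups of mice none had a Cd2 call. Ccr7, the receptor that brings naive T and B cells to lymph nodes, had 4.74, 8.41, 5.78 and 10.3 TPM in room air against 3.53, 5.25 and 3.81 TPM in hyperoxic B6 lungs, groups that overlapped despite the call (-0.64 ± 0.21, limma adjusted p = 0.0231). That call was lost in 9 of 17 alternatives (limma adjusted p up to 0.222), males alone, quantile normalization and leaving out room air library 2 or 4 or hyperoxia library 1 or 3 among them. It had 5.16, 6.42, 5.76 and 5.40 and then 5.97, 6.03, 6.62 and 3.80 TPM in KO lungs, 3.17, 2.31, 2.48 and 5.68 and then 3.21, 3.79, 3.61 and 4.13 TPM in DBA lungs, and 11.3 and 19.9 and then 6.29, 9.40 and 7.85 TPM in set 2. In set 2 the Ccr7 groups did not overlap and the gene was not called (-0.87 ± 0.24, limma adjusted p = 0.073).

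In KO lung most calls were T cell members, and their room air levels differed between libraries. The 11 called lower in hyperoxia were Tnfrsf25, Cd3g, Cd3e, Cd4, Cd3d, Tcf7, Bcl11b, Cd5, Gata3, Il7r and Cd247. Room air KO lungs had 6.34, 22.4, 7.85 and 12.1 TPM of Cd3e, 6.82, 26.6, 14.5 and 17.8 TPM of Cd3g and 4.94, 19.5, 4.02 and 9.15 TPM of Lck. Library 2 was the highest of the 4 for each of these genes, and library 4 came second for each. Lat was 3.15, 14.1, 4.75 and 7.12 TPM, Cd8b1 4.56, 18.4, 2.41 and 8.89 TPM and Tcf7, a transcription factor of thymocytes and naive T cells, 30.9, 61.8, 24.1 and 40.2 TPM in the same lungs, in each case with library 2 highest. Hyperoxic KO lungs had 6.97, 7.15, 3.20 and 3.83 TPM of Cd3e, 5.46, 6.09, 5.30 and 9.07 TPM of Cd3g, 3.96, 5.59, 2.72 and 1.64 TPM of Lck, 4.25, 3.62, 3.38 and 2.98 TPM of Lat, 2.23, 3.84, 1.99 and 1.90 TPM of Cd8b1 and 20.8, 20.2, 22.2 and 19.2 TPM of Tcf7. Tcf7 showed no overlap between the KO groups (-0.81 ± 0.19, limma adjusted p = 0.00876), whereas Cd3e and Cd3g overlapped and Lck, Lat and Cd8b1 were not called. Cd247 varied less, with 6.28, 7.99, 6.08 and 6.89 and then 5.01, 4.98, 4.94 and 5.48 TPM (-0.35 ± 0.12, limma adjusted p = 0.0473).

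Genes of immature thymocytes stood high in the same libraries. Rag1, which cuts receptor genes for rearrangement, had 3.35, 23.2, 1.06 and 7.94 TPM and Dntt, which adds bases at the joints, 2.52, 21.5, 0.340 and 6.91 TPM in room air KO lungs. The sum of Rag1, Rag2, Dntt, Ptcra and Ccr9, 5 genes picked from the list of 11 after their values were seen, was 8.43, 54.1, 2.03 and 19.5 TPM in room air against 2.12, 7.31, 1.82 and 1.37 TPM in hyperoxic KO lungs. B6 lungs had 2.03, 0.914, 12.1 and 7.48 TPM of these 5 in room air against 2.09, 2.12 and 2.79 TPM in hyperoxia, with room air library 3 highest. DBA lungs stayed at 0.396 to 1.66 TPM in room air against 0.332 to 2.21 TPM in hyperoxia, and set 2 had 4.87 and 25.7 and then 3.20, 11.1 and 3.22 TPM. The whole list of 11 thymocyte genes summed to 32.9 to 86.7 TPM in room air against 22.9 to 34.2 TPM in hyperoxic KO lungs. Of the 6 tested, 2 were called lower, where 9.11% of all genes were. Foxn1 and Psmb11, which thymic epithelial cells express, had 0.213, 0.979, 0 and 0.389 and 0.174, 0.525, 0.0480 and 0.328 TPM in room air KO lungs. Library 2 was the highest and library 4 the next for both genes, as for the thymocyte sum, and these values of library 2 were the highest of any lung library. The part of thymic cells in the KO result was not tested.

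The number of calls in KO lung varied with the libraries and terms in the fit. Among the 11 T cell calls, that of Tnfrsf25 held in all 17 alternatives, those of Cd3d and Cd3g were lost in 2, Tcf7 and Cd5 in 4, Il7r in 8, Cd3e in 10, and Cd4, Bcl11b, Gata3 and Cd247 in 12. With the 5-gene thymocyte sum as a term, 2 T cell and 0 B cell members were called in KO lung in place of 11 and 1, and without the 3 libraries of the table over 10 TPM of that sum 1 T cell member, Tnfrsf25, was called. Leaving out room air library 2 or 4 gave 6 calls, and leaving out hyperoxia library 3 or 4 gave 5 and 6. Within date code 3, which holds room air libraries 3 and 4 and all hyperoxia libraries of KO, 5 members were called, 1 B cell and 4 T cell genes, and the count was also 5 with date code as a term. In B6 lung the B cell count remained 9 of 9 and the T cell count 4 with the thymocyte sum as a term.

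**Figure D3:**
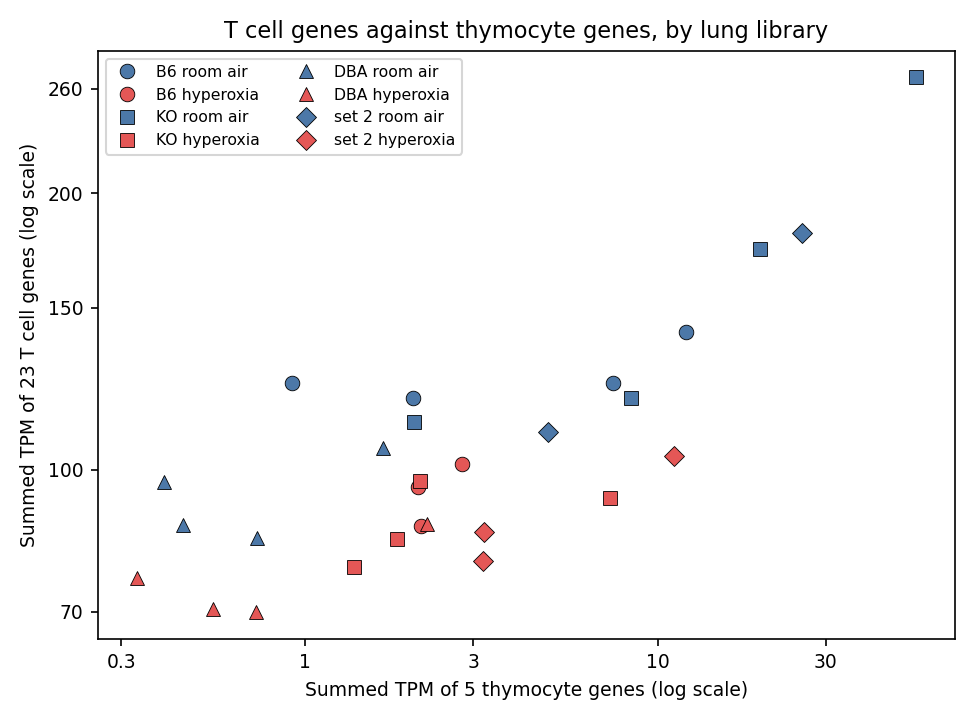
Summed TPM of the 23 T cell genes against summed TPM of 5 thymocyte genes (Rag1, Rag2, Dntt, Ptcra and Ccr9) in each lung library, on log axes, by genotype and oxygen. The highest thymocyte sum, 54.1 TPM in room air KO library 2, goes with the highest T cell sum, 268 TPM, and DBA libraries lie at the left with 0.332 to 2.21 TPM of thymocyte genes.

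Tnfrsf25 encodes death receptor 3, the receptor for the cytokine TL1A on T cells and innate lymphoid cells, and fell in hyperoxia in each genotype of the first tables. B6 lungs had 3.98, 3.20, 2.004 and 2.58 TPM in room air against 0.704, 0.788 and 0.290 TPM in hyperoxia (-1.29 ± 0.22, limma adjusted p = 2.52e-04). KO lungs had 4.81, 2.43, 4.14 and 5.37 and then 1.05, 0.759, 1.19 and 1.33 TPM (-1.29 ± 0.20, limma adjusted p = 5.85e-04). DBA lungs had 13.8, 10.8, 17.02 and 13.6 and then 1.18, 3.11, 1.59 and 2.94 TPM (-2.25 ± 0.22, limma adjusted p = 1.62e-05). In none of the 3 did room air and hyperoxia overlap, and room air DBA lungs held the highest levels of all. Set 2 went from 3.70 and 3.40 TPM to 1.64, 2.57 and 2.03 TPM, without overlap and without a call (-0.57 ± 0.21, limma adjusted p = 0.155). The fall was called larger in DBA than in B6 lung, with a difference of -0.95 ± 0.32 (limma adjusted p = 0.037), while the KO and B6 responses differed by 0.01 ± 0.30 without a call. The DBA difference lost its call in 15 of 24 alternatives, with limma adjusted p-values of up to 0.462. Among these were date code as a term (-0.71, limma adjusted p = 0.136), males alone, and leaving out B6 room air library 3 or 4, B6 hyperoxia library 1 or 2, DBA room air library 1, 3 or 4, or DBA hyperoxia library 1 or 3. The 3 calls of the oxygen response held under every alternative that was run, the thymocyte sum as a term among them.

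Gata3, a transcription factor of T helper type 2 cells, innate lymphoid cells and thymocytes, was called lower in the same 3 genotypes, least firmly in KO lung. It went from 4.82 to 6.21 TPM to 2.33 to 3.59 TPM in B6 (-0.76 ± 0.22, limma adjusted p = 0.0128) and from 4.98 to 9.53 TPM to 3.39 to 3.84 TPM in DBA lung (-0.73 ± 0.16, limma adjusted p = 0.00367), without overlap. KO lungs overlapped, with 2.85 to 5.98 TPM in room air against 1.71 to 4.08 TPM in hyperoxia (-0.67 ± 0.21, limma adjusted p = 0.0346). The KO call was lost in 12 of 17 alternatives (limma adjusted p up to 0.379), leaving out room air library 1, 2 or 4 or hyperoxia library 2, 3 or 4 among them. The B6 call was lost in 3 of 17, in males alone, with date code as a term and without hyperoxia library 2, and the DBA call in 1 of 17. Type 2 innate lymphoid cell genes tested beside it gave 1 lower and 1 higher of 5 in B6, where 26% of all genes were called lower and 16.6% higher. The receptor gene Il1rl1, which marks those cells, fell by 0.67 on the log2 scale in B6 lung. Rora of the same list rose, from 12.2, 12.3, 9.84 and 12.9 TPM in room air to 19.1, 17.2 and 19.1 TPM in hyperoxia. The 8 listed genes summed to 19.9 to 24.0 TPM in room air against 23.8 to 25.8 TPM in hyperoxic B6 lungs. Icos, a costimulatory receptor, fell in DBA lung alone among the 4 sets of mice (-0.69 ± 0.19, limma adjusted p = 0.0127), and its responses were not called as different between DBA and B6 (-0.53 ± 0.28).

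Il7r, the receptor for the survival cytokine interleukin 7, responded differently in KO and DBA lung than in B6 lung of the first tables. B6 lungs had 4.06, 4.36, 3.79 and 3.60 TPM in room air against 4.43, 4.70 and 5.90 TPM in hyperoxia, with every hyperoxic library above every room air library and no call (0.27 ± 0.15, limma adjusted p = 0.157). KO lungs had 6.11, 4.42, 6.64 and 7.16 and then 4.62, 4.06, 3.28 and 4.79 TPM (-0.44 ± 0.14, limma adjusted p = 0.0361) and DBA lungs 2.19, 1.46, 2.65 and 3.59 and then 1.52, 0.858, 1.13 and 1.77 TPM (-0.56 ± 0.18, limma adjusted p = 0.0268), both with overlap. Set 2, which is also B6, had 4.001 and 6.75 TPM in room air against 3.29, 4.02 and 3.41 TPM in hyperoxia, with overlap and no call (-0.45 ± 0.22), so that its value had the sign of KO and DBA lung and not that of the first B6 mice. The response was lower than in B6 of the first tables both in KO (-0.72 ± 0.21, limma adjusted p = 0.0182) and in DBA lung (-0.84 ± 0.26, limma adjusted p = 0.0272). Leaving the females out ended the call of the difference from B6 in KO (limma adjusted p = 0.0695) and DBA lung (limma adjusted p = 0.103), as did leaving out B6 hyperoxia library 3. Of 24 alternatives, 2 ended the KO difference and 6 the DBA difference, and of 17 alternatives 7 ended the call of the DBA response. Bone marrow macrophages of the same study held 87.7 to 298 TPM of Il7r, so lymphocytes were not the only cells in the series with this transcript.

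Foxp3, the transcription factor of regulatory T cells, had 3.63, 3.79, 4.25 and 3.89 TPM in room air against 2.83, 3.88 and 2.29 TPM in hyperoxic B6 lungs. KO lungs had 3.57, 3.001, 4.21 and 3.98 and then 6.28, 4.54, 4.81 and 4.62 TPM, and here hyperoxia lay above room air in all 4 libraries. The hyperoxic KO lungs exceeded hyperoxic B6 lungs (0.61 ± 0.15, limma adjusted p = 0.00452) and the responses differed (0.68 ± 0.20, limma adjusted p = 0.0224), although neither response was called by itself. DBA lungs had 4.13, 4.88, 5.68 and 5.02 and then 3.04, 4.20, 3.18 and 4.29 TPM, and set 2, whose table lists another transcript of the gene, 3.12 and 2.30 and then 2.23, 2.47 and 2.13 TPM. Macrophage cultures, in which Cd3d, Cd3e and Cd3g stayed under 1 TPM, held 4.93 to 7.24 TPM of Foxp3, so Foxp3 reads in this series were not limited to samples that hold T cells. With date code as a term Foxp3 was called neither in the hyperoxic comparison of KO with B6 (0.25, limma adjusted p = 0.654) nor in the difference of responses (0.50, limma adjusted p = 0.162), which lost its call in 5 of 24 alternatives, without B6 hyperoxia library 3 among them.

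Most receptor, kinase and transcription factor genes of T cells gave no call with oxygen in DBA lung. DBA lungs had 31.01, 28.4, 19.5 and 21.8 and then 26.97, 24.4, 23.3 and 24.4 TPM of Tcf7, 4.41, 2.19, 1.69 and 5.82 and then 5.07, 4.06, 3.88 and 7.04 TPM of Cd3g, and 3.63, 3.11, 1.20 and 4.72 and then 3.92, 2.35, 2.78 and 3.44 TPM of Cd3e. They had 3.27, 4.02, 3.05 and 2.35 and then 4.67, 3.81, 3.99 and 3.25 TPM of Cd247, 3.49, 2.71, 3.90 and 4.996 and then 3.34, 3.50, 2.78 and 4.03 TPM of Lck, and 4.87, 3.06, 6.15 and 5.70 and then 4.49, 2.19, 3.08 and 5.32 TPM of Lat. Room air and hyperoxia overlapped for all 6 of these genes and none was called in DBA lung. Cd8b1 stayed low in DBA lungs, at 0.289, 0.809, 0.698 and 0.985 TPM in room air against 0.418, 0.408, 1.08 and 1.40 TPM in hyperoxia. In set 2, Tcf7 had 19.1 and 25.01 and then 13.3, 15.98 and 15.1 TPM, Cd3g 7.42 and 11.03 and then 7.48, 5.75 and 7.22 TPM, and Cd3e 6.51 and 9.54 and then 5.54, 7.46 and 3.77 TPM. Cd247 had 5.70 and 4.97 and then 2.26, 4.07 and 3.59 TPM, Lck 4.67 and 11.4 and then 4.74, 6.84 and 4.90 TPM, Lat 5.23 and 14.5 and then 4.57, 5.33 and 5.45 TPM and Cd8b1 7.39 and 20.5 and then 4.94, 7.22 and 4.20 TPM. Room air library 2 of set 2, the one with the higher thymocyte sum, was the higher room air library for all of these but Cd247. In B6 lungs Tcf7 was the most abundant T cell member, at 36.4, 29.8, 32.5 and 29.6 TPM in room air against 33.4, 28.3 and 26.7 TPM in hyperoxia, and overlapped between them.

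**Figure D4:**
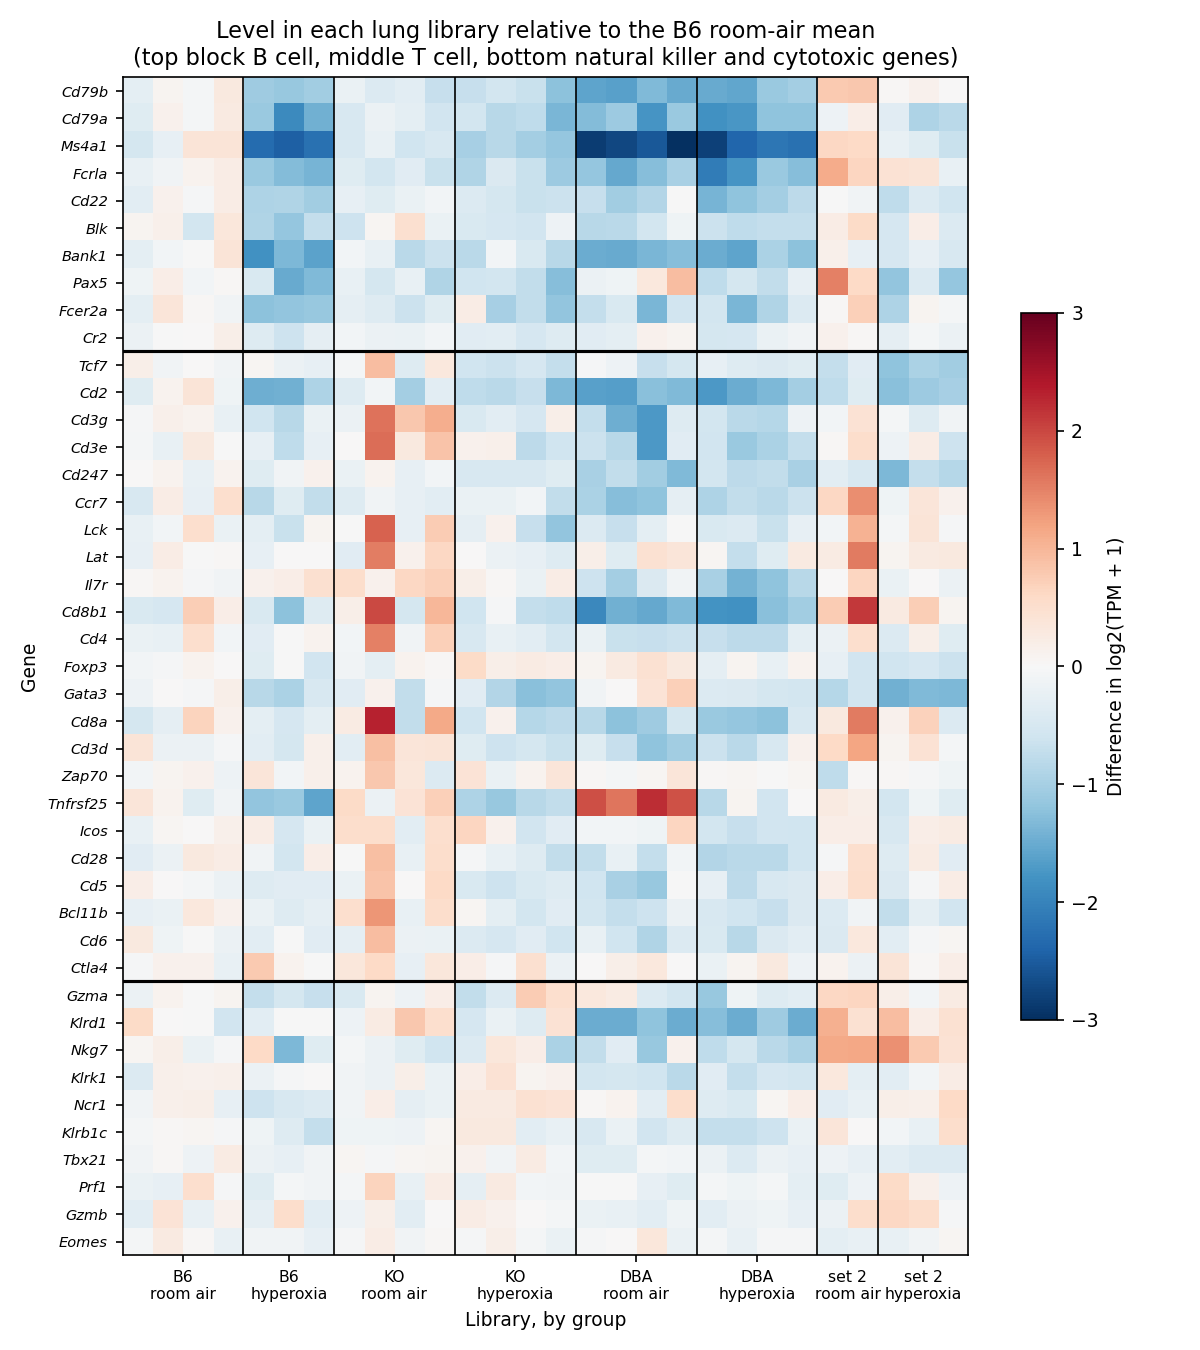
Difference of log2(TPM + 1) from the mean of room air B6 lungs for the 43 genes (rows, grouped as B cell, T cell and NK or cytotoxic) in the 28 lung libraries (columns, grouped by genotype and oxygen). Most B cell rows are low across hyperoxic B6 and DBA libraries, Pax5 in room air DBA lungs is not, and the CD3, CD4 and CD8 rows are high in room air KO library 2.

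Between room air KO and B6 lungs limma called 0 of 34 members, where 0.0256% of all genes were called lower and 0.0512% higher, and gave 7 members at an unadjusted p under 0.05. Those 7 were Cd79b, Ms4a1, Fcrla and Cd2 with negative values and Cd3e, Cd3g and Il7r with positive values. The B cell members had a median of -0.41 and the T cell members of 0.33 against -0.04 over all genes. Quantile normalization, the smaller pseudocount, the fit without a filter, and terms for sex, date code or the thymocyte sum each gave 0 calls as well, and without KO room air library 1 there was 1. In hyperoxia KO lungs had 6 members higher than B6 and 1 lower, where 22% of all genes were called higher and 15.2% lower. Of the 6 higher genes, 5 belonged to B cells, namely Ms4a1 (1.32 ± 0.18, limma adjusted p = 6.32e-05), Bank1 (1.04 ± 0.23), Cd79a (0.61 ± 0.21), Fcrla (0.50 ± 0.16) and Cd22 (0.39 ± 0.14). Cd247 was the gene called lower (-0.34 ± 0.13). Date code 1 covers all hyperoxic B6 libraries and date code 3 all hyperoxic KO libraries, and with date code as a term 0 members were called. Leaving out B6 library 2 or 3 gave 3 calls, and leaving out KO library 2 or 3 gave 4. Pan-leukocyte genes were higher in hyperoxic KO than B6 lungs in 7 of 8 cases, and their part in the B cell values was not tested.

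Room air DBA lungs held less of most lymphocyte genes than room air B6 lungs. Of 34 members 23 were called lower and 1 higher, 8 of 9 B cell, 14 of 22 T cell and 1 of 3 NK genes among those lower, where 34.8% of all genes were called lower and 21.5% higher. The median was -1.23 for B cell, -0.54 for T cell and -0.53 for NK members against -0.12 for all genes. Klrd1 and Cd6, both among those called lower, reached 1 TPM in B6 libraries alone and so were tested only through the group where they are high. Ms4a1 showed the widest gap (-2.80 ± 0.20, limma adjusted p = 6.27e-08), followed by Cd8b1 (-1.56 ± 0.29), Cd79b (-1.51 ± 0.14) and Cd2 (-1.46 ± 0.18). Tnfrsf25 was the member called higher (1.92 ± 0.22, limma adjusted p = 4.16e-06), and Pax5 (0.23 ± 0.25), Gata3 (0.25 ± 0.16), Foxp3 (0.27 ± 0.14), Lat (0.15 ± 0.21) and Zap70 (0.12 ± 0.13) had positive values without a call. Pan-leukocyte genes were lower in 7 of 8 cases, summing to 146 to 183 TPM in DBA against 264 to 324 TPM in B6, and macrophage genes in 8 of 9. Per unit of Ptprc the B cell sum was 3.23 to 3.44 in room air DBA lungs, within the 2.90 to 3.82 of room air B6 lungs. With the thymocyte sum as a term 12 members were called (6 B cell genes and 4 T cell genes lower, Tnfrsf25 higher, 1 NK gene), and among males alone 16. The 2 thymocyte genes called lower were Rag1 (-1.29 ± 0.36) and Ccr9 (-0.67 ± 0.22).

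In hyperoxia no B cell member was called between DBA and B6 lungs. Among 9 B cell members limma called 0 and gave 0 at an unadjusted p under 0.05, with a median of -0.01 against 0.02 for all genes. For Ms4a1 the difference was -0.07 ± 0.22 and for Cd79b -0.22 ± 0.15, which does not show that the levels are the same. Members of all kinds called lower numbered 6 and those called higher 1, where 22.8% and 23.3% of all genes were called. The lower ones were Il7r (-1.38 ± 0.19, limma adjusted p = 4.25e-05), Klrd1 (-1.21 ± 0.22), Cd8b1 (-0.78 ± 0.31), Cd247 (-0.66 ± 0.16), Cd28 (-0.61 ± 0.22) and Cd4 (-0.56 ± 0.20), and the higher one was again Tnfrsf25 (0.97 ± 0.24). With sex as a term, or with the thymocyte sum, 4 members were called, and leaving out B6 library 3 or DBA library 1, 2 or 3 also gave 4. The B6 libraries here are those set against KO lungs above.

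NK and cytotoxic genes were near the limit of detection, and 3 of the 10 were tested in the first tables. Gzma, which encodes granzyme A, had 2.15, 2.83, 2.49 and 2.72 TPM in room air against 1.15, 1.44 and 1.20 TPM in hyperoxic B6 lungs, groups that did not overlap and were not called (-0.65 ± 0.28, limma adjusted p = 0.0795). KO lungs had 1.58, 2.73, 2.17 and 3.04 and then 1.12, 1.66, 5.04 and 3.98 TPM, DBA lungs 3.41, 3.22, 1.67 and 1.42 and then 0.604, 2.26, 1.70 and 1.82 TPM, and set 2 4.39 and 4.49 and then 3.01, 2.35 and 3.17 TPM. Set 2 showed no overlap for Gzma and no call either. Nkg7, a granule membrane gene, had 2.28, 2.55, 1.73 and 2.10 and then 3.73, 0.241 and 1.44 TPM in B6, 2.02, 1.77, 1.46 and 1.10 and then 1.39, 2.96, 2.63 and 0.644 TPM in KO, 0.879, 1.48, 0.425 and 2.44 and then 0.872, 1.17, 0.812 and 0.624 TPM in DBA and 5.95 and 5.99 and then 7.10, 4.46 and 3.23 TPM in set 2, with overlap in each. No NK member was called in any oxygen response, and at an unadjusted p under 0.05 limma gave only Gzma, in B6 and in set 2.

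Klrd1, which encodes CD94, separated the strains. The B6 libraries had 3.14, 1.81, 1.75 and 0.875 TPM in room air against 1.24, 1.75 and 1.76 TPM in hyperoxia, and the KO libraries 1.49, 2.31, 3.89 and 2.95 and then 0.979, 1.42, 1.14 and 2.78 TPM. DBA libraries were listed at 0, 0, 0.2 and 0 TPM in room air against 0.154, 0, 0.321 and 0 TPM in hyperoxia, so that every DBA library lay under every B6 library of the same air. The difference from B6 was -1.41 ± 0.20 in room air (limma adjusted p = 3.68e-05) and -1.21 ± 0.22 in hyperoxia (limma adjusted p = 3.96e-04). Klrd1 passed the filter through B6 libraries alone, the group where it is high, so these tests add no separate support to the listed levels. DBA/2J mice are known to lack CD94 on NK cells, which is background to these levels. Set 2 had 4.84 and 2.81 TPM in room air against 4.32, 2.20 and 2.84 TPM in hyperoxia. The neighbouring receptor gene Klrk1, for NKG2D, had 0.310, 0.926, 0.889 and 0.921 and then 0.538, 0.684 and 0.748 TPM in B6, 0.621, 0.536, 0.960 and 0.524 and then 0.988, 1.36, 0.849 and 0.908 TPM in KO, 0.196, 0.199, 0.158 and 0 and then 0.364, 0.0530, 0.222 and 0.193 TPM in DBA lungs. In set 2, with another transcript listed, Klrk1 had 1.16 and 0.427 and then 0.389, 0.646 and 1.02 TPM. Klrk1 did not reach the filter of the first tables, so its lower DBA levels carry no test.

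Klrb1c, the gene of the NK1.1 antigen, had 0.572, 0.662, 0.691 and 0.596 and then 0.502, 0.240 and 0 TPM in B6, and 0.489, 0.485, 0.470 and 0.699 and then 0.988, 0.998, 0.311 and 0.396 TPM in KO lungs. In DBA lungs it had 0.162, 0.413, 0.0980 and 0.237 and then 0, 0, 0.0530 and 0.416 TPM, and in set 2 1.10 and 0.633 and then 0.531, 0.392 and 1.36 TPM. No DBA library reached the highest B6 or KO values of this gene. Ncr1, the natural cytotoxicity receptor NKp46, had 0.439, 0.724, 0.748 and 0.301 and then 0, 0.1 and 0.160 TPM in B6, and 0.441, 0.766, 0.283 and 0.348 and then 0.867, 0.868, 1.12 and 1.04 TPM in KO lungs. For Ncr1 the hyperoxic libraries lay under the room air libraries in B6 and above them in KO. DBA lungs had 0.586, 0.670, 0.236 and 1.21 and then 0.181, 0.118, 0.593 and 0.779 TPM of Ncr1 and set 2 0.220 and 0.312 and then 0.745, 0.708 and 1.34 TPM, and the gene was tested in no table. Granzyme B, perforin and the transcription factors Eomes and Tbx21 did not pass 0.926 TPM (Gzmb), 1.05 TPM (Prf1), 0.532 TPM (Eomes) and 0.566 TPM (Tbx21) in any lung library.

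**Figure D5:**
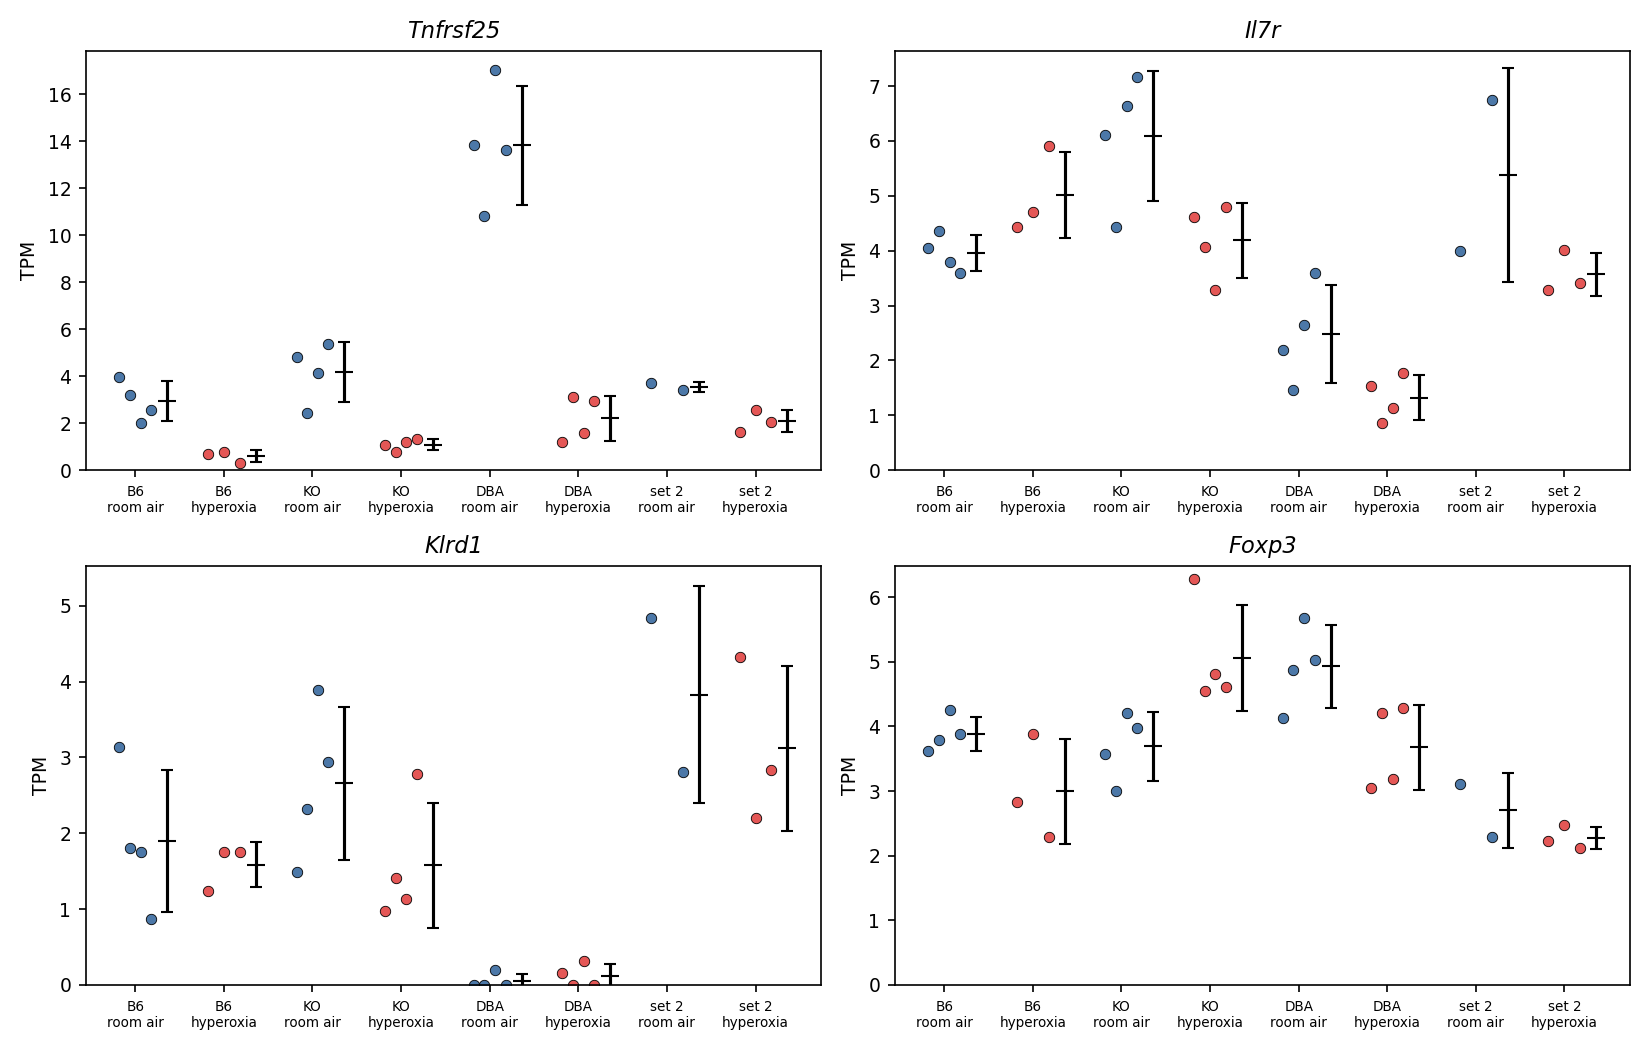
TPM of Tnfrsf25, Il7r, Klrd1 and Foxp3 in each lung library by genotype and oxygen, with the mean and SD of each group. Tnfrsf25 is highest in room air DBA lungs (10.8 to 17.0 TPM) and falls in hyperoxia, Klrd1 stays at or under 0.321 TPM in DBA lungs, and Foxp3 lies at 4.54 to 6.28 TPM in hyperoxic KO lungs and at 4.13 to 5.68 TPM in room air DBA lungs.

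Nothing in the p53 maps of lung lay near these genes. Of the 6 lung lists of p53 peaks, made from chromatin of the 3 genotypes in each air and holding 134 to 255 peaks, none had a peak within 10000 bases of the start of any of the 43 members. Peaks lay that near to 0.225% to 0.405% of 24940 genes in those lists, so that a count of 0 among 43 genes is near the background.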

How the data were processed

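Gene expression was measured by poly(A) RNA-seq in 28 lung libraries, deposited by the authors as TPM per gene in 3 tables. Alignment to mm10 and the use of STAR, HOMER and Bowtie2 come from the submitters' processing notes, which give no role or order for them. Groups come from the sample labels, sex and date code from column names. Members, gene lists and tests were chosen with earlier results of these data known. TPM sums to 529199 to 605692 per library, and the 7 B6 columns of the KO and DBA tables hold equal values for 41 of the 43 members. Values were analysed as log2(TPM + 1) with limma 3.58.1 in R 4.3.3 (trended prior, all groups of a table in 1 fit, Benjamini-Hochberg over all genes tested), and the code was tested on simulated data. The tables were normalized separately and tested separately. Where nothing says that libraries came from separate litters, p-values measure only the spread between these libraries. Every member is accounted for, and values per library are given for the most abundant members of each class (6 B cell, 10 T cell and 6 NK) and for those called in a difference of responses, 26 in all. From other lists, up to 4 called genes with the largest change were named, with Sdc1 added as the plasma cell gene called higher in B6. Some genes of those lists are counted with their list and not reported by name here. The p53 peak lists hold positions and a score per peak as deposited by the authors, called on pooled replicates per the labels, and the score is used for ranks only. Alternatives were quantile normalization, a pseudocount of 0.1, no filter, only the groups compared, date code, sex or thymocyte genes in the fit, subsets by date code or sex, and each library left out in turn.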

Additional observations from a re-analysis of the deposited data

Results flagged for a closer look

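Among 145 groups of 4 libraries (members shown by library, and class sums), 10 had a library whose gap to its nearest neighbour was too large a part of the group's range by Dixon's 95% critical value, and chance gives about 1 in 20. Among T cell genes these were Cd247 in hyperoxic KO library 4 (5.48 TPM), Cd8b1 in hyperoxic KO library 2 (3.84 TPM), Foxp3 in hyperoxic KO library 1 (6.28 TPM) and Lck in room air B6 library 3 (7.52 TPM). Among NK genes they were Klrd1 in room air DBA library 3 (0.200 TPM, the others at 0), Klrk1 in room air B6 library 1 (0.310 TPM, the lowest), and Klrb1c in room air KO library 4 (0.699 TPM) and hyperoxic DBA library 4 (0.416 TPM). The B cell sum of room air KO library 4 was low (64.1 TPM) and that of room air DBA library 4 high (42.6 TPM).

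The oxygen response differed between genotypes for 18 member results, by the test of the difference itself in limma, on the log2 scale. B6 of the first tables was the reference in each. KO was higher for Ms4a1 (1.77), Bank1 (1.48), Cd79a (1.00), Fcrla (0.98), Cd79b (0.69), Foxp3 (0.68) and Cd22 (0.62), and lower for Il7r (-0.72). DBA was higher for Ms4a1 (2.73), Bank1 (1.69), Cd2 (1.35), Cd79a (1.31), Cd79b (1.30), Fcer2a (1.16), Fcrla (0.94) and Blk (0.79), and lower for Tnfrsf25 (-0.95) and Il7r (-0.84).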

How the results depend on the processing

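Of 89 called member results, 36 kept their call under every setting that was run, 53 lost it at least once and 0 changed direction. In the B6 oxygen response 11 of 13 kept it, with 11 to 15 members called across settings and 12 to 13 when single libraries were left out. The KO response (12 called) gave 6 without a filter, 7 with only the groups compared, 5 with date code as a term, 5 within date code 3, 2 with the thymocyte sum as a term, 1 without libraries above 10 TPM of thymocyte genes, and 5 to 16 when 1 library was left out. The DBA response (5) gave 1 within date code 4 and 3 to 6 without single libraries. Set 2 (3) gave 8 with the replicate block, in a fit that paired the replicates by the numbers in the labels, and 1 to 3 without single libraries, the labels giving no shared animal or day behind those numbers. No paired analysis was possible in the other tables because their columns are numbered anew for each date code and carry no link to numbered replicates. KO against B6 gave 0 to 1 in room air (0), and in hyperoxia (7) 4 under quantile normalization, 0 with date code as a term and 3 to 7 without single libraries. DBA against B6 in room air (24) gave 12 with the thymocyte sum and 21 to 23 without single libraries, and in hyperoxia (7) 4 with sex as a term, 4 with the thymocyte sum and 4 to 8 without single libraries. The KO minus B6 difference (8) gave 5 under quantile normalization, 4 with date code as a term, 4 without libraries above 10 TPM of thymocyte genes, and 6 to 10. The DBA minus B6 difference (10) gave 6 in males only and 6 to 13 without single libraries. Date code as a term could not be fitted for DBA against B6, which share no code. The cause of these shifts was not tested. The thymocyte settings were chosen after seeing the data. A pseudocount of 1 understates changes of genes near or under 1 TPM, and 7 of the 10 NK genes were not tested in the first tables.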

Other observations

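Cultured bone marrow macrophages exposed for 24 h to room air or high oxygen (12 libraries of the same 3 genotypes) show which of the 43 genes are not particular to lymphocytes. In these cultures 34 members stayed under 1 TPM in every library, the CD3 chain genes, Ms4a1 and Cd79a among them. The other 9 reached 1 TPM or more, led by Il7r (87.7 to 298 TPM), Cd28 (21.9 to 121 TPM) and Cd4 (17.6 to 59.3 TPM). Lat reached 12.2 TPM, Cd22 10.9 TPM, Foxp3 7.24 TPM, Cd247 6.25 TPM, Cd79b 5.60 TPM and Bank1 1.48 TPM. In DBA cultures Cd22 stayed at 0 to 0.158 TPM. How much macrophages add to these genes in whole lung was not tested.

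In macrophage chromatin, p53 peaks within 10000 bases of a member's start were found for 4 members in hyperoxic B6 cultures, where 4.74% of 24940 genes had such a peak. They lay 1594 bases downstream of the start of Il7r, 49 bases upstream of Klrb1c, 2136 bases downstream of Klrk1 and 6668 bases upstream of Tnfrsf25. By the authors' score these ranked 653, 998, 1991 and 2525 among 3500 peaks. Room air B6 cultures had none near a member (6.31% of genes). Peaks of KO cultures lay 6696 bases downstream of the Ms4a1 start in hyperoxia and, in room air, 6999 bases downstream of Ms4a1, 5427 upstream of Icos and 2049 downstream of Klrk1, where 1.84% and 1.46% of genes had a peak that near.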
